A study of Mus musculus with 40 samples.

Results

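The genes described here encode bacterial RNA polymerase and the protein factors that drive transcription and translation, measured in 5 bacteria of the mouse cecum. A row was taken when its symbol, once any copy number such as _2 was removed, was 1 of 24 names (rpoA, rpoB, rpoC, rpoD, rpoE, rpoZ, nusA, nusB, nusG, rho, tuf, tufA, tsf, fusA, fus, infA, infB, infC, efp, prfA, prfB, prfC, frr and lepA). This gave 107 genes of the 16742 features in the 5 tables: 25 in Acetatifactor, 24 in L.bacterium335, 17 in X. muris, 21 in D. muris and 20 in F. rodentium. Of the 24 names, 22 were found and 15 occurred in all 5 bacteria, while rpoD was found in L.bacterium335 alone and F. rodentium held no rho. The names of the bacteria are those of the tables, and 22 of the 107 rows carry a copy number, so that reads shared between copies may have been divided in a way that is uncertain.

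The mice were C57BL/6 and were 3 weeks old when put on the Total Western Diet, a rodent chow with a Western nutrient profile. After 6 weeks they stayed on it for 3 further weeks, plain (0%) or with broccoli powder added at 0.5%, 1% or 2.5% of the diet, and cecal contents were then collected. Each diet group had 10 libraries of rRNA-depleted total RNA, and all groups shared the strain and the base diet. The contrasts ask whether broccoli in the diet changed the RNA level of these genes within each bacterium.

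RNA polymerase copies DNA into RNA: rpoA, rpoB, rpoC and rpoZ encode its core (the alpha, beta, beta' and omega subunits), and sigma factors such as the product of rpoD direct the core to promoters. The products of nusA, nusB, nusG and rho act on elongation and termination of the transcript. In translation, infA, infB and infC encode the initiation factors, tuf encodes EF-Tu, which brings aminoacyl-tRNA to the ribosome, tsf encodes its exchange factor EF-Ts, and fusA encodes EF-G, which moves the ribosome along the message. Release factors (prfA, prfB, prfC) end the chain and the product of frr recycles the ribosome, and many of these genes are among the more abundantly transcribed genes of growing bacteria.

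The 6 deposited tables together held 236483 to 5107249 counts per library, with a median of 825813. Each bacterium was tested alone, over the libraries with at least 10000 counts on its genome, so each value is relative to the rest of that bacterium's counts. In a bacterium's unscaled total, fewer cells and less RNA per cell cannot be told apart. At 0, 0.5, 1 and 2.5% the libraries kept were 10, 10, 10 and 10 in Acetatifactor and in L.bacterium335, 7, 7, 10 and 9 in X. muris, 9, 9, 10 and 9 in D. muris, and 10, 10, 10 and 8 in F. rodentium. The libraries left out at 2.5% in F. rodentium held 161 and 352 counts on that genome. Library numbers in the titles run in blocks by diet group, so any effect of that order cannot be told apart from diet. An exception is a block of 6 libraries numbered 76 to 81, with 4 at 0.5%, 1 at 1% and 1 at 2.5%, and results that changed without it are given so. Among the 2.5% libraries, replicate 8 stood apart in Acetatifactor (tuf_2 was the only member with counts, 100 of them) and replicate 9 stood apart in L.bacterium335 (35 counts on 5 members). Values without these libraries are given where they differ.

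The share of a bacterium's counts that fell on these genes separated the 5 bacteria. In L.bacterium335 the median share was 0.0394% at 0%, 0.733% at 0.5%, 0.901% at 1% and 1.48% at 2.5%. In Acetatifactor it was 0.593%, 0.616%, 0.873% and 1.32% along the same doses, and in X. muris it was 0.325%, 0.489%, 0.770% and 1.17%. D. muris (3.61%, 3.75%, 3.40% and 3.55%) and F. rodentium (5.32%, 4.22%, 4.41% and 5.46%) showed a higher share with no such gradient. The 2.5% and 0% libraries overlapped in every bacterium. In L.bacterium335 they ran from 0.0344% to 2.20% at 2.5% and from 0.0218% to 0.325% at 0%, and without 2.5% replicate 9 the lowest share at 2.5% was 0.666%. No p is given for these shares, since they sum over the chosen genes.

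**Figure D1:**
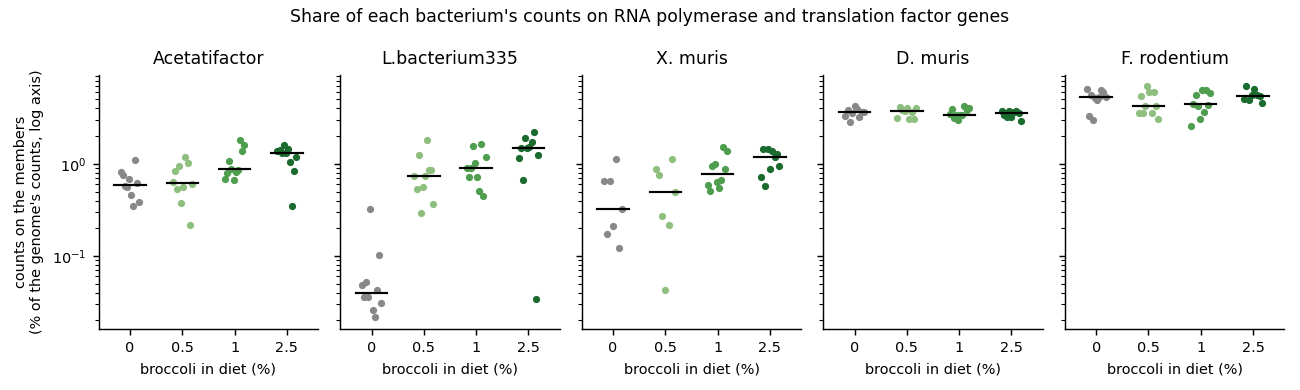
Percent of each bacterium's counts on its RNA polymerase and translation factor genes (log axis) against broccoli in the diet. Each point is 1 library with at least 10000 counts on the genome and the bar is the group median. The median in L.bacterium335 is 0.0394% at 0% and 1.48% at 2.5%, while the group medians of D. muris and F. rodentium lie between 3.40% and 5.46%.

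A few very abundant other features moved together with these shares. These were the 5 features outside the list with the most counts summed over the 0% libraries. Being picked for high values at 0%, they favour a fall at 2.5%, so their shares are a description and no test. They held a median of 9.11% of L.bacterium335 counts at 2.5% and 76.3% at 0%. The values were 11.3% at 2.5% and 55.7% at 0% in Acetatifactor, and 49.1% at 2.5% and 91.2% at 0% in X. muris. In D. muris they held 4.99% at 2.5% and 11.4% at 0%, and in F. rodentium 14% at 2.5% and 15.4% at 0%. With those 5 features left out of the total, the median share was 1.62% at 2.5% and 0.153% at 0% in L.bacterium335. In Acetatifactor it was then 1.44% at 2.5% and 1.29% at 0%, and in X. muris 2.46% at 2.5% and 3.10% at 0%. The log2 ratio of mean shares, 2.5% over 0%, was 4.21 in L.bacterium335, 0.92 in Acetatifactor and 1.24 in X. muris with every feature counted. It was 2.24, 0.032 and -0.62 in the same order without those features, so the direction in X. muris depends on them. Since they were picked at 0%, leaving them out favours a higher share at 0%.

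The number of genes seen followed the same division. If every library were thinned to 10000 counts on its genome, a median of 16.0 of 24 L.bacterium335 genes would be expected to hold a count at 2.5%, and 1.92 at 0%. The values were 15.5 of 25 at 2.5% and 3.36 at 0% in Acetatifactor, and 13.4 of 17 at 2.5% and 8.37 at 0% in X. muris. In D. muris they were 18.8 of 21 at 2.5% and 18.3 at 0%, and in F. rodentium 18 of 20 at 2.5% and 18.1 at 0%. The first 2 bacteria had groups that overlapped through 1 library at 2.5% each: without those libraries the lowest was 13 genes in L.bacterium335 at 2.5%, against a highest of 3.18 at 0%. In Acetatifactor the lowest at 2.5% was then 11.6, against a highest of 10.2 at 0%.

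**Figure D2:**
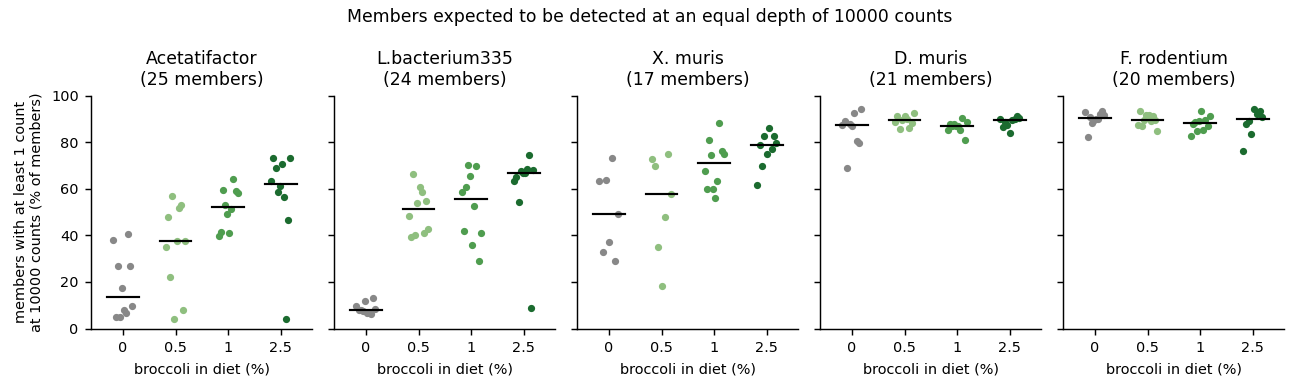
Share of the genes of the list expected to hold at least 1 count if each library were thinned to 10000 counts on the genome, against broccoli in the diet. Points are libraries and bars are medians; L.bacterium335 and Acetatifactor have low values at 0% (medians of 1.92 and 3.36 genes) and D. muris and F. rodentium are high at every dose.

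In L.bacterium335 most genes of the list were without counts in mice on the plain diet, and all of them had counts in the mice given 2.5% broccoli. At 0%, 18 of its 24 genes had 0 counts over all 10 libraries. Among tested features, 9 of the 15 genes of the list and 903 of all 1384 had 0 counts at 0%, so the list was close to the rest. On the plain diet tuf with 347, fusA_1 with 122 and rpoD_1 with 85 made up 96.2% of the 576 counts on the list. At 2.5% all 24 had counts, 79905 in all, of which tuf held 36.9%, rpoB 12.2% and rpoC 10.9%. The low-count filter kept 15 genes, of which 0 would have passed on the 0% group alone (tuf came closest, with 9 of the 10 libraries needed). Genes that passed with the help of the broccoli groups were picked partly for high values there, which favours higher calls. The counts and fold changes that follow therefore describe the list and are no test of it. At 0.5%, 14 of 15 were higher in edgeR's quasi-likelihood test (adjusted p under 0.05), where 79.9% of all tested features changed, 79.3% upward. At 1% it was 14 of 15, where 79.7% changed, 78.3% upward. At 2.5%, 14 were higher and 1 was lower, where 92.6% changed, 77.8% upward and 14.8% downward. The fitted median log2 fold change at 2.5% was 8.07 over the 15 and 7.94 over all 1384 tested features, and with genes at 0 counts set to their lower bound it was 5.71 and 5.29. The change of the list was therefore about that of the bacterium's other tested genes.

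Of the polymerase core in L.bacterium335, rpoB (the beta subunit) had from 12.5 to 1523 CPM, its counts scaled to a common total for the genome, at 2.5%, with a median of 1299. It had 0 counts in each of the 10 libraries at 0%. Its 2.5% and 0% libraries did not overlap, a separation that rested on the 12.5 CPM of replicate 9 at 2.5%. How many of all tested features were apart in this way was not computed. The gene rpoB was at least 365.5-fold higher at 2.5% (floor of 3 counts over the 0% group, on the scaled totals used for CPM). Against the same floor it was at least 322-fold higher at 0.5% and 318-fold at 1%. These bounds and those that follow hold under that scaling only. The gene rpoC (beta') ran from 25 to 1354 CPM at 2.5%, median 1154, and from 0 to 58.5 CPM at 0%, where 4 libraries held its 12 counts. Its log2 fold change was 6.08 ± 0.75 (SE). For rpoA (alpha), the 2.5% libraries ran from 0 to 896 CPM with a median of 589, and the 0% libraries from 0 to 109 CPM, on 7 counts in 2 libraries. Its log2 fold change was 5.71 ± 0.79. In both genes only 2.5% replicate 9 lay inside the range of the 0% libraries. The omega gene rpoZ was not tested, with 114 counts at 2.5% and 0 at 0%.

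The sigma factor gene rpoD_1 went the other way in L.bacterium335. It had 1.19 to 62.6 CPM at 2.5%, median 19.2, against 0 to 285 CPM at 0%, median 83.9, and the groups overlapped. It changed by -2.11 ± 0.65 in log2 units (edgeR adjusted p = 0.00174, 0 of 10 libraries at 2.5% above the 0% mean), but it was 0.45 and not called with RLE factors, the median-of-ratios scaling of DESeq2. At 0.5% and 1% its log2 fold changes were 0.99 ± 0.65 and 0.37 ± 0.64, neither called. The direction of rpoD_1 thus depends on the scaling. The second copy, rpoD_2, had 36 counts at 2.5% and 0 at 0% and was not tested.

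Termination and NusG followed the core. The termination factor gene rho was at least 36.9-fold higher at 2.5% and nusG at least 47.4-fold higher, both with 0 counts at 0%. At 2.5%, rho ran from 0 to 176 CPM with a median of 127. The genes nusA and nusB were not tested and had 444 and 225 counts at 2.5% and 0 at 0%.

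Among the translation genes of L.bacterium335, infB (initiation factor IF2) was at least 92.4-fold higher at 2.5%, with 0 to 442 CPM, median 328, and 0 counts at 0%. The second EF-G gene, fusA_2, was at least 169-fold higher, with 0 to 1034 CPM, median 590, and 0 counts at 0%. The EF-Ts gene tsf was at least 109.7-fold higher, with 0 to 740 CPM and a median of 322 against 0 counts at 0%. In all 3 the 2.5% library at 0 was replicate 9, the one on which the groups overlapped. Bounds of at least 20.3-fold for efp (elongation factor P), 39-fold for frr and 68.3-fold for prfB_2 completed those with 0 counts at 0%. The ribosome-associated GTPase gene lepA had 3 counts at 0%, and its ratio, 2.5% over 0%, was 95.5 with a 95% counting interval of 32.6 to 463.

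The genes tuf and fusA_1 were the only translation genes of L.bacterium335 that most 0% libraries registered. For tuf, the 2.5% libraries ran from 250.5 to 5490 CPM with a median of 3816, and the 0% libraries from 66.1 to 2222 CPM with a median of 163. It changed by 3.00 ± 0.60 in log2 units (edgeR adjusted p = 1.71e-06), with 9 of 10 libraries at 2.5% exceeding the mean at 0%. For fusA_1, 2.5% libraries ran from 87.7 to 1887 CPM, median 564, and 0% libraries from 0 to 951 CPM, median 35.8. Its log2 fold change was 2.43 ± 0.62, and 3.93 without 0% replicate 5, which held 0.325% of its counts on the list. Scaled to the summed counts on ribosomal protein genes in place of TMM (edgeR's trimmed-mean scaling over all features), both changed sign, to -0.23 for tuf and -1.01 for fusA_1, in a fit that could use only the libraries with at least 50 such counts. Under that scaling 13 genes of the list were called, 12 higher and 1 lower, and the part of all features called is not given here. Without 2.5% replicate 9 the count stayed at 15, where 1129 of all tested features were higher and 245 lower. The log2 fold changes were then 3.13 for tuf and 6.22 for rpoC.

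**Figure D3:**
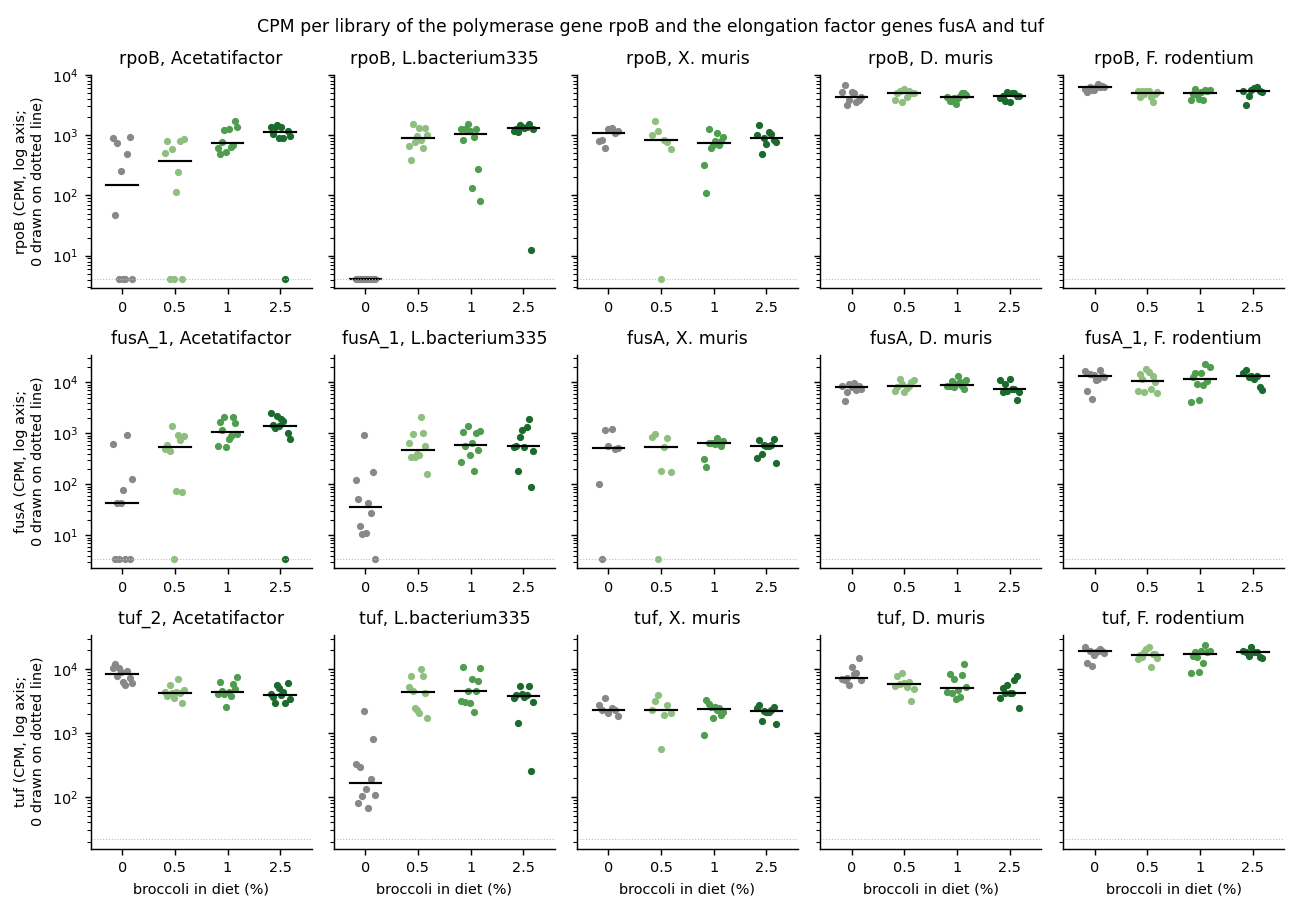
CPM per library (log axis, 0 drawn on the dotted line) of rpoB, fusA and tuf, with the tested copy of tuf and the first copy of fusA where there are several, against broccoli in the diet. Bars are medians; rpoB of L.bacterium335 is at 0 in all 10 libraries at 0%, tuf of D. muris has a median of 4284 CPM at 2.5% and 7424 at 0%, and the panels of F. rodentium show no step.

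In Acetatifactor the EF-Tu gene tuf_2 dominated the list in mice on the plain diet and held a smaller part of the list's counts with broccoli. At 0% it held 87.6% of the 2234 counts on the list, against 53.1% at 0.5%, 43.5% at 1% and 34.9% of 16504 at 2.5%. At 0%, 7 of 25 genes had 0 counts. Among tested features, 0 of the 9 genes of the list and 7 of all 773 had 0 counts at 0%. The filter kept 9 genes, of which tuf_2 alone would have passed on the 0% group. The other 8 passed through the broccoli groups, so higher calls on them describe the list and are no test of it. At 0.5%, 3 were higher and 1 was lower (24.5% of all tested features changed, 21.1% upward and 3.36% downward), and 0 were called without libraries 76 to 81, 4 of which are at 0.5%. At 1% 5 were higher and 1 lower (67.1% changed, 49.4% upward and 17.7% downward), and at 2.5% 7 were higher and 1 lower (77.2% changed, 54.6% upward and 22.6% downward). The median log2 fold change at 2.5% was 2.61 over the 9 genes and 1.81 over all 773 tested features. RLE factors moved the median over all features at 2.5% by more than 0.1 in 4 bacteria: from 1.81 to 3.84 in Acetatifactor, 7.94 to 9.20 in L.bacterium335, 0.51 to 0.25 in X. muris and 0.01 to 0.12 in F. rodentium. With them 9 of 9 Acetatifactor genes were higher and 0 lower (543 features higher and 18 lower, against 422 and 175 with TMM). In L.bacterium335 they gave 14 higher and 0 lower, with 1146 features higher and 30 lower, against 1077 and 205 with TMM.

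The 3 tested core polymerase genes were higher in Acetatifactor at 2.5%, and the omega gene rpoZ was not tested, with 14 counts at 2.5% and 0 at 0%. For rpoC, 2.5% libraries had 0 to 1978 CPM, median 1358, and 0% libraries 0 to 541 CPM, median 81.6, a log2 change of 3.14 ± 0.66. For rpoB the 2.5% libraries had 0 to 1449 CPM, median 1120, and the 0% libraries 0 to 922 CPM, median 151, a log2 change of 1.66 ± 0.69 (edgeR adjusted p = 0.0257). The call on rpoB was lost without 0% replicate 5 (adjusted p = 0.0584), 6 (0.0643) or 7 (0.0624), without 2.5% replicate 9 (0.0507) and without libraries 76 to 81. For rpoA, with 0 to 749 CPM and a median of 333 at 2.5%, against 0 to 427 CPM and a median of 0 at 0%, the log2 fold change was 1.98 ± 0.74, and 3.17 without 0% replicate 1. In each of the 3 genes 9 of 10 libraries at 2.5% exceeded the mean at 0%, and the exception, replicate 8, was at 0. Of the termination genes, rho_2 had 0 to 494 CPM at 2.5%, median 278, and 0 to 138 CPM at 0%, median 0, with a log2 fold change of 3.07 ± 0.80. The other copy, rho_1, was not tested and had 76 counts at 2.5% and 0 at 0%.

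The initiation factor gene infB and both EF-G genes of Acetatifactor were likewise higher at 2.5%, and the other initiation genes, infA and infC, were not tested. For infB, 2.5% libraries had 0 to 634 CPM, median 399.6, and 0% libraries 0 to 155 CPM, median 0, a log2 change of 2.97 ± 0.73. The EF-G genes changed by 2.96 ± 0.70 for fusA_1 and by 2.61 ± 0.69 for fusA_2. At 2.5%, fusA_1 had 0 to 2519 CPM with a median of 1418, against 0 to 934 CPM with a median of 42.7 at 0%. At 2.5%, fusA_2 had 0 to 1127 CPM with a median of 816, against 0 to 541 CPM with a median of 53.3 at 0%. The gene efp did not pass the test (1.28 ± 0.69, edgeR adjusted p = 0.0840). The 16 genes not tested, among them nusA, nusG, tsf and the release factors, had 1795 counts at 2.5% and 40 at 0%.

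The tested EF-Tu gene, tuf_2, had 2975 to 6015 CPM at 2.5%, median 3998, and 5707 to 12158 CPM at 0%, median 8328. The groups overlapped only slightly, and no library at any broccoli dose lay above the 0% mean. Its log2 fold change was -0.89 ± 0.30 at 0.5%, -0.81 ± 0.30 at 1% and -0.99 ± 0.30 at 2.5% (edgeR adjusted p = 0.00331), all 3 called with TMM (at 0.5% not without libraries 76 to 81), while with RLE factors it was 1.06 at 2.5%. Within a library, which needs no scaling, the ratio of tuf_2 to rpoB counts had a median of 3.51 at 2.5% (n = 9, 2.20 to 5.66) and 11.1 at 0% (n = 4, 7.85 to 19.2). That ratio was computed after the change of tuf_2 had been seen, rests on libraries with at least 10 counts on both genes, and was not tested. The call on tuf_2 was lost with no low-count filter (-0.85) and with the total count of the genome as covariate (-0.86). It was also lost without 0% replicate 1 (-0.62, adjusted p = 0.0573) and without 2.5% replicate 8 (-0.64, adjusted p = 0.0521). Without 2.5% replicate 8, 9 of 10 tested genes of the list were higher and 0 lower, where 479 of all tested features were higher and 181 lower. The other copy, tuf_1, had 22 counts at 2.5% and 2 at 0%.

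The calls in Acetatifactor depend on the scaling. Scaled to ribosomal protein genes, 0 of the genes were called at 0.5% and at 1%, and 1 was called lower at 2.5%, with log2 fold changes of -0.64 for rpoA and -0.076 for rpoB. That fit too could use only libraries with at least 50 counts on ribosomal protein genes, so any loss of libraries cannot be told apart from the change of scale. With the log2 total on the genome as a covariate, 1 gene was called at 2.5%. The total counts on the genome moved with diet as well, with a median of 129471 at 2.5% and 35241 at 0% in Acetatifactor and 525404 at 2.5% and 83651 at 0% in L.bacterium335. The part of depth in these results was not tested beyond that covariate.

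**Figure D4:**
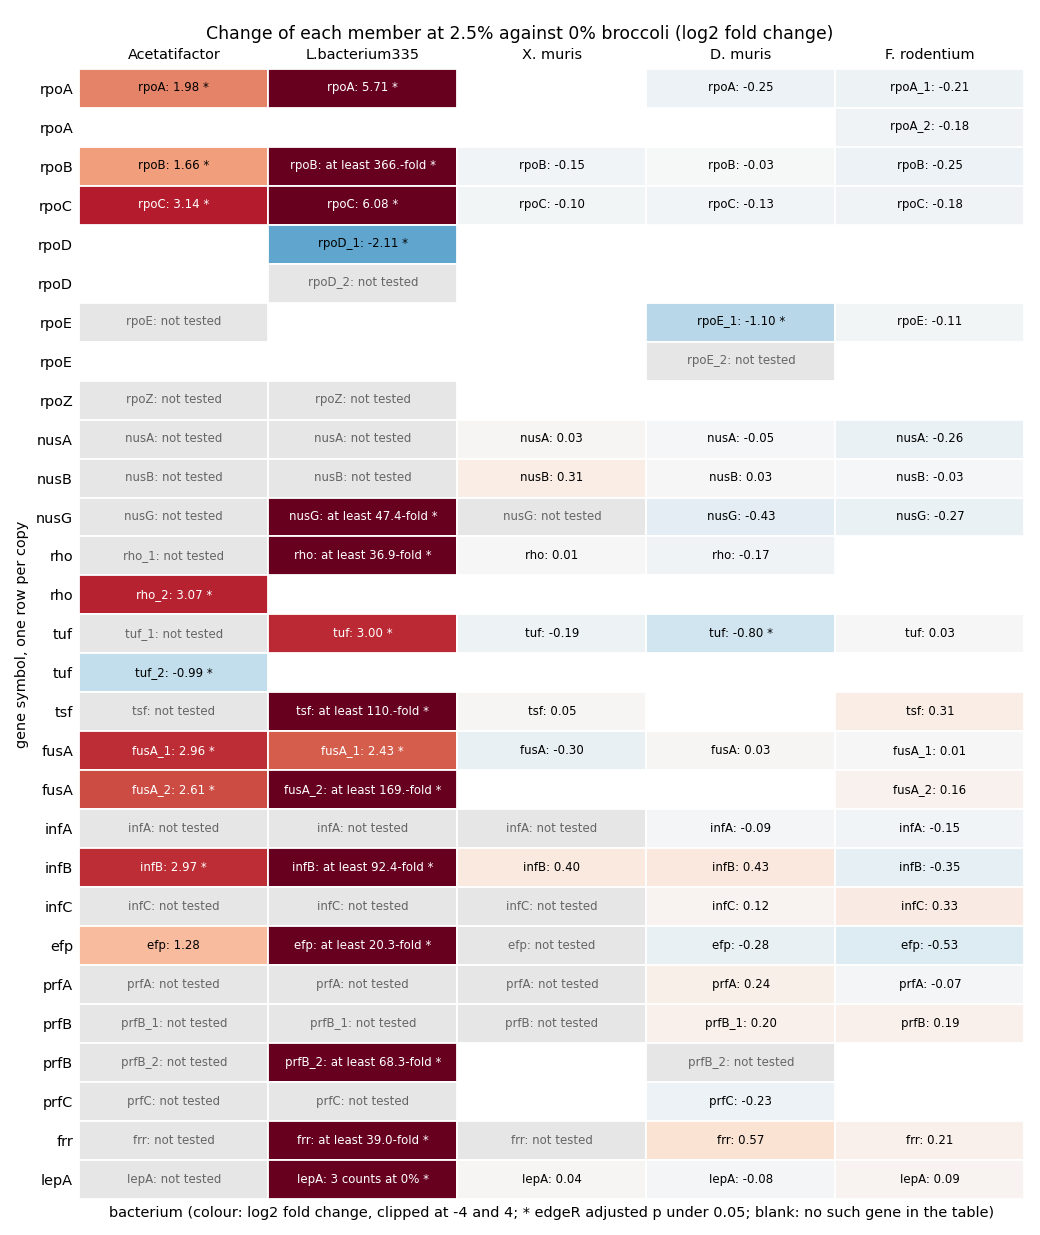
Log2 fold change at 2.5% against 0% broccoli of every gene of the list in each bacterium, with colour clipped at -4 and 4. An asterisk marks an edgeR adjusted p under 0.05, grey cells were not tested, and genes at 0 counts in the 0% group carry a lower bound; calls are dense in L.bacterium335 and Acetatifactor, 2 in D. muris and absent in X. muris and F. rodentium.

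In X. muris no gene of the list passed the test at any dose. The filter kept 10 of 17 genes, of which 2 would have passed on the 0% group alone. Among them edgeR called 0 at 0.5%, 1% and 2.5%, with 0 at an unadjusted p under 0.05 at each dose and 0 by DESeq2. Of all tested features 0%, 6.27% and 11% changed at these doses. The median log2 fold change at 2.5% was 0.02 over the 10 genes and 0.51 over all 670 features. The polymerase genes rpoB and rpoC had log2 fold changes of -0.15 ± 0.36 and -0.10 ± 0.38. At 2.5%, rpoB had 477 to 1479 CPM, median 885, and at 0% 621 to 1329 CPM, median 1097. For rpoC the 2.5% libraries had 460 to 1020 CPM, median 728, and the 0% libraries 130 to 1581 CPM, median 667.

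The other named genes of X. muris overlapped in the same way. For tuf, 2.5% libraries had 1405 to 2750 CPM, median 2218, and 0% libraries 1823 to 3492 CPM, median 2334, with a log2 fold change of -0.19 ± 0.32. For fusA it was -0.30 ± 0.39, with a median of 564 CPM at 2.5% and 521 at 0%, and for rho 0.01 ± 0.50, with a median of 320 CPM at 2.5% and 0 at 0%. All 9 libraries at 2.5% exceeded the mean at 0% for infB, with 741 to 1311 CPM, median 1017, at 2.5% and 0 to 1474 CPM, median 504, at 0%, but its log2 fold change of 0.40 ± 0.37 did not pass (edgeR adjusted p = 0.524). The 7 genes not tested had 849 counts at 2.5% and 36 at 0%. With 275 counts on tuf and 123 on rpoB over the 7 libraries at 0%, small changes were not detectable at these counts.

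In D. muris the EF-Tu gene and a gene named rpoE were called lower at 2.5%, and none of the polymerase core genes passed the test. With 2 of 19 tested genes called there, the list was close to the 10.5% of all tested features that changed. The filter kept 19 of 21 genes, of which 10 would have passed on the 0% group alone. edgeR called 0 at 0.5% (1 at an unadjusted p under 0.05, 4.42% of all features changed), 0 at 1% (2 at an unadjusted p under 0.05, 6.14% changed) and 2 at 2.5%, both lower (10.5% changed, 6.68% downward). DESeq2 called 2 at 2.5%, both lower (the part of all features it called is not given here). The median log2 fold change at 2.5% was -0.08 over the 19 genes and 0.08 over all 1108 tested features.

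EF-Tu gene tuf of D. muris had 2456 to 7817 CPM at 2.5%, median 4284, and 5653 to 15242 CPM at 0%, median 7424. All 9 libraries at 2.5% lay below the 0% mean, although the groups overlapped. It changed by -0.80 ± 0.22 in log2 units (edgeR adjusted p = 0.0112), and -0.52 ± 0.22 at 0.5% and -0.48 ± 0.21 at 1% did not pass (adjusted p = 0.231 and 0.243). At 2.5% the call was lost with no low-count filter and with the total count of the genome as covariate (-0.41), and was kept with ribosomal protein genes as the scale. Within libraries, the median ratio of tuf to rpoB was 1.68 at 0%, 1.17 at 0.5%, 1.17 at 1% and 1.14 at 2.5%. This ratio too was chosen after the change of tuf had been seen and was not tested.

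The second gene called lower in D. muris was rpoE_1, a symbol used for a sigma factor in some bacteria and for the delta subunit of the polymerase in others. It had 126 to 393 CPM at 2.5%, median 244, and 86.3 to 1170 CPM at 0%, median 480, with 0 of 9 libraries at 2.5% above the 0% mean and overlapping groups. On the log2 scale it changed by -1.10 ± 0.33 (edgeR adjusted p = 0.0211), and the call was lost without 0% replicate 4 (0.0586) or 6 (0.102). The call was also lost with no low-count filter, with the total count of the genome as covariate and with ribosomal protein genes as the scale. It rested on 234 counts at 2.5% and 120 at 0%. The other copy, rpoE_2, was not tested, with 54 counts at 2.5% and 8 at 0%.

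The remaining named genes of D. muris differed by less than the test could call. The core gene rpoB had 3572 to 5170 CPM at 2.5%, median 4460, and 3194 to 6724 CPM at 0%, median 4205, with a log2 fold change of -0.03 ± 0.13. For rpoC it was -0.13 ± 0.14, with medians of 6319 CPM at 2.5% and 6985 at 0%, for rpoA -0.25 ± 0.19 and for rho -0.17 ± 0.19. The EF-G gene fusA had 4468 to 11415 CPM at 2.5%, median 7566, and 4243 to 9843 CPM at 0%, median 8192, with a log2 fold change of 0.03 ± 0.16. The largest increase among the named genes was in infB, with 1820 to 3451 CPM at 2.5%, median 2521, and 1197 to 2226 CPM at 0%, median 1899. A change of 0.43 ± 0.17 on the log2 scale did not pass (edgeR adjusted p = 0.0941), though 8 of 9 libraries at 2.5% exceeded the mean at 0%. The 11 other tested genes had log2 fold changes at 2.5% between -0.43 (nusG) and 0.57 (frr).

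In F. rodentium no gene of the list was called at any dose by edgeR. All 20 genes were tested. edgeR called 0 at 0.5% (5 at an unadjusted p under 0.05, 7.99% of all 1689 features changed), 0 at 1% (3 at an unadjusted p under 0.05, 0.414% changed) and 0 at 2.5% (1 at an unadjusted p under 0.05, 9.41% changed). DESeq2 called 3 at 0.5%, all lower, and 0 at 1% and 2.5% (the part of all features it called is not given here). The median log2 fold change at 2.5% was -0.09 over the 20 genes and 0.01 over all features, and the range was -0.53 (efp) to 0.33 (infC).

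The core genes of F. rodentium had their lowest medians at 0.5% and 1%. For rpoB the median was 6332 CPM at 0%, 5044 at 0.5%, 5050 at 1% and 5333 at 2.5%, and for rpoC it was 5998, 5005, 5082 and 5600 CPM in that order. None of the 10 libraries at 0.5% and none of the 10 at 1% lay above the 0% mean in either gene. The log2 fold changes at 0.5% were -0.34 ± 0.14 for rpoB (edgeR adjusted p = 0.110) and -0.34 ± 0.13 for rpoC (0.0928), so neither passed. At 2.5% they were -0.25 ± 0.15 and -0.18 ± 0.14. The rpoA copies changed by -0.21 ± 0.14 (rpoA_1) and -0.18 ± 0.17 (rpoA_2) at 2.5%, with medians of 1223 and 1226 CPM at 2.5% and of 1497 and 1456 CPM at 0%.

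The translation genes of F. rodentium overlapped between the groups. The EF-Tu gene tuf, the most counted gene of the list there, had 15091 to 22488 CPM at 2.5%, median 18583, and 11118 to 22128 CPM at 0%, median 19041. Its log2 fold change was 0.03 ± 0.18. For fusA_1 the log2 fold change was 0.01 ± 0.27, with 7267 to 17703 CPM at 2.5% and 4678 to 17853 CPM at 0%. For fusA_2 it was 0.16 ± 0.18, with 2137 to 3782 CPM at 2.5% and 1417 to 3172 CPM at 0%. None of the 8 libraries at 2.5% exceeded the mean at 0% for infB (572 to 978 CPM at 2.5%, 885 to 1172 CPM at 0%), but the log2 fold change of -0.35 ± 0.15 did not pass (edgeR adjusted p = 0.127).

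The change from 0% to 2.5% was compared between bacteria within the same mice, over symbols held once in both tables (limma on the per-mouse difference of log2 CPM, Benjamini-Hochberg adjustment over 354 symbols of both pairs). Between F. rodentium and D. muris 6.58% of 228 symbols differed, among them 2 of 13 genes of the list. The median difference was -0.38 over the 228 symbols and -0.45 over the 13 genes. For tuf the change was 0.04 in F. rodentium and -0.80 in D. muris, a difference of 0.83 ± 0.26 (limma adjusted p = 0.0390). For infB it was -0.35 in F. rodentium and 0.42 in D. muris, a difference of -0.77 ± 0.24 (limma adjusted p = 0.0408). The test used 8 mice at 2.5% and 9 at 0%. Without libraries 76 to 81 neither passed (a difference of 0.69 with adjusted p = 0.117 for tuf, -0.80 with adjusted p = 0.0793 for infB). Between X. muris and D. muris 12.7% of 126 symbols differed and 0 of 9 genes of the list by limma, with 1 at an unadjusted p under 0.05. On this scale of log2 CPM with a prior count of 2, that gene was rho, named after its value was seen. Its change was 1.87 in X. muris and -0.29 in D. muris, a difference of 2.16 ± 0.75 (limma adjusted p = 0.0594). The median difference over all 126 symbols was 1.04. In X. muris only 3 of the 7 libraries at 0% reached the filter's CPM cutoff for rho, and the edgeR change given above was near none.

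Ratios between genes of 1 library do not depend on scaling. Of 5 ratios tested at 2.5% against 0% (two-sided exact permutation tests, Benjamini-Hochberg adjustment over the 5), 1 differed. The ratio of fusA_2 to rpoB counts in F. rodentium had a median of 0.556 at 2.5% (0.411 to 0.689, n = 8) and 0.410 at 0% (0.255 to 0.538, n = 10). The mean log2 ratio differed by 0.43 (exact permutation p = 0.00366, adjusted p = 0.0183), and all 8 libraries at 2.5% lay above the 0% median, although the groups overlapped. The ratio of fusA_1 to rpoB there differed by 0.32 (exact permutation p = 0.282), and that of fusA to rpoB in D. muris by 0.02 (exact permutation p = 0.950). The ratio of rpoB to rpoC, whose products form 1 enzyme, had a median in F. rodentium of 0.963 at 2.5% and 0.993 at 0% (exact permutation p = 0.221). In D. muris it was 0.684 at 2.5% and 0.650 at 0% (exact permutation p = 0.540). In F. rodentium the 0% libraries kept it between 0.902 and 1.11.

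**Figure D5:**
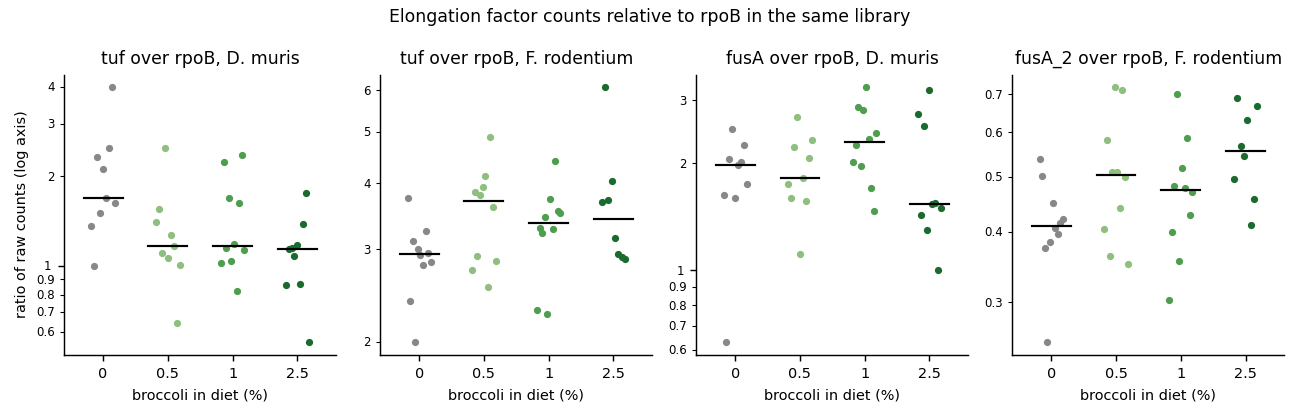
Counts of an elongation factor gene divided by the counts of rpoB in the same library (log axis) against broccoli in the diet, for libraries with at least 10 counts on both genes. Bars are medians; tuf over rpoB in D. muris is 1.68 at 0% and 1.14 at 2.5%, and fusA_2 over rpoB in F. rodentium is 0.410 at 0% and 0.556 at 2.5%.

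The spread between mice within a diet group also divided the bacteria. The median biological coefficient of variation of edgeR over the tested genes of the list was 0.269 in F. rodentium and 0.335 in D. muris, against 0.367 and 0.417 over all tested features of the same bacteria. It was 0.419 in X. muris, 0.812 in L.bacterium335 and 0.861 in Acetatifactor, against 0.460, 0.817 and 0.852 over all features there. Features with more counts tend to have a lower value, so the comparison was repeated over features at or above the median level of the list. It then gave 0.240 for the list and 0.296 for all features in F. rodentium, and 0.271 and 0.305 in D. muris. In the same order it gave 0.398 and 0.404 in X. muris, 0.815 and 0.827 in L.bacterium335, and 0.832 and 0.805 in Acetatifactor. The lowest values were those of rpoA_1 (0.200) in F. rodentium and rpoB (0.209) in D. muris.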

How the data were processed

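The authors deposited raw counts per feature in 1 table per bacterium, from RNA of cecal contents depleted of rRNA (QIAseq FastSelect) and prepared with the KAPA RNA HyperPrep kit, per the labels' protocols. The aligner, the counting program, the strand setting and the builds were not given in the sources used here, nor was the treatment of reads shared between bacteria or gene copies. Every table column matched a library by its name, and 0 were left unused. Nothing says whether samples of a group were processed separately, so p-values measure only the spread between these mice's libraries.

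In each bacterium all libraries with at least 10000 counts were fitted together in edgeR 4.0.16 (R 4.3.3): filterByExpr, TMM factors, robust quasi-likelihood test, two-sided, Benjamini-Hochberg adjustment over all tested features, threshold 0.05. In X. muris, 5 stable RNA features (0.184% of counts) were left out. SEs come from the fold change and F. CPM are counts scaled to a common TMM-adjusted total. A floor of 3 counts over the group served genes with 0 counts, and intervals and floors cover counting error only. Alternatives were RLE factors, no filter, DESeq2 1.42.0, leaving out libraries, the genome total as covariate, and ribosomal protein scaling. Between bacteria, limma 3.58.1 was used with a prior count of 2. Ratios were tested by permutation in scipy 1.17.1. The scripts were tested on simulated data.

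Named genes were all copies of rpoA, rpoB, rpoC, tuf, fusA, infB and rho, plus the called genes with the 3 smallest adjusted p each way at 2.5%. Others named, such as lepA, efp, nusG and frr, complete a count or a range and were chosen after their values were seen. The genes, lists and tests were chosen with earlier results of these data known. Alistipes was not among the tables of the rule. For the share without the 5 most counted features, those outside the list were taken, since tuf is among the 5 most counted of F. rodentium.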

Additional observations from a re-analysis of the deposited data

Results flagged for a closer look

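Of 180 groups of 4 to 10 values examined, 17 (9.44%) held a library far from the rest, where chance flags about 1 in 20. L.bacterium335 replicate 9 at 2.5% was far below the other 9 libraries in 7 genes: 0 CPM of fusA_2, infB, rho and rpoA, 12.5 CPM of rpoB, 25 CPM of rpoC and 250.5 CPM of tuf. The 5 features outside the list most counted at 0% held 79.1% of that library's counts, against a group median of 9.11%. Acetatifactor replicate 8 at 2.5% was at 0 CPM of fusA_1, fusA_2, rpoB and rpoC, with 28575 counts on the genome. L.bacterium335 replicate 5 at 0% had 0.325% of its counts on the list, above the other 9 libraries. In F. rodentium low single libraries were replicate 4 at 0% for fusA_2 (1417 CPM), replicate 7 at 0.5% for rpoA_2 (779 CPM), replicate 5 at 1% for rpoA_1 (823 CPM) and replicate 3 at 2.5% for infB (572 CPM). In D. muris replicate 2 at 0% was low for fusA (4243 CPM). The causes were not tested.

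In the test of the difference itself, the change at 2.5% against 0% differed between F. rodentium and D. muris for tuf and infB. The log2 differences were 0.83 for tuf and -0.77 for infB. Neither passed when the block of libraries numbered apart from their diet groups was left out. Of all 228 symbols compared between these bacteria 6.58% differed, and the median difference over them was -0.38.

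Alistipes, outside the rule, held 21 genes with the same names. Summed over them, the median library held 483 counts at 2.5% (162 to 1623), against 11.5 at 0% (1 to 36), with every library at 2.5% above every library at 0%. These are raw counts, not scaled to that genome's total.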

How the results depend on the processing

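No paired analysis was possible because replicate numbers follow accession order and pair no samples. For the numbers of genes called below, the part of all features called under the same setting is not given here. They therefore do not set the list apart from the rest of its genome. Numbers of genes called that moved by over 1.5 times were as follows. In Acetatifactor at 0.5% (4 called) they were 7 with no filter, 9 with DESeq2, 0 without libraries 76 to 81 and 0 with ribosomal scaling. At 1% (6 called) they were 16 with no filter, 17 with DESeq2 and 0 with ribosomal scaling, and at 2.5% (8 called) 18, 22, and 1 each with the covariate and with ribosomal scaling. In D. muris at 2.5% (2 called) they were 0 with no filter, 0 with the covariate and 1 with ribosomal scaling. In F. rodentium at 0.5% (0 called) they were 3 with DESeq2 and 1 with the covariate, and in L.bacterium335 at 2.5% (15 called) 23 with no filter. Leaving out each library gave 7 to 10 in Acetatifactor, 1 to 2 in D. muris, 0 in F. rodentium and X. muris and 15 in L.bacterium335. The log2 ratio of shares moved to 0.032 in Acetatifactor, 2.24 in L.bacterium335 and -0.62 in X. muris without the 5 other features most counted at 0%. Between bacteria, 0 genes were called without libraries 76 to 81 for F. rodentium minus D. muris, and 1 with a prior count of 0.5 for X. muris minus D. muris. Signs reversed with ribosomal scaling for rpoA (-0.64) and rpoB (-0.076) of Acetatifactor and for fusA_1 (-1.01) and tuf (-0.23) of L.bacterium335. They reversed with RLE factors and DESeq2 for tuf_2 of Acetatifactor (1.06 and 1.05) and rpoD_1 of L.bacterium335 (0.45 and 0.46). No filter and DESeq2 test more genes by construction; the other causes were not tested. Few counts on the list limit the 0% groups of L.bacterium335 and X. muris, with 576 and 957. In L.bacterium335 this was so at a median total of 83651 counts on the genome at 0%, against 28584 in D. muris.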

Other observations

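Other genes of transcription and translation were taken from a list of sigma factors, transcript cleavage factors, ribosome assembly GTPases and maturation factors. At 2.5% against 0%, edgeR called 0 of 16 tested in D. muris (1 at an unadjusted p under 0.05), where 10.5% of all tested features changed, and 2 of 22 in F. rodentium, both lower, where 9.41% changed. These were greA, which encodes a transcript cleavage factor, changed by -0.87 ± 0.19 in log2 units (edgeR adjusted p = 0.00326), and obg, an assembly GTPase gene, with -0.76 ± 0.23 (adjusted p = 0.0313), and in both 0 of 8 libraries at 2.5% exceeded the mean at 0%. In X. muris, where 11% changed, 1 of 8 was called, rimP, a ribosome maturation factor gene, higher by 2.35 ± 0.79 (adjusted p = 0.0339) with 9 of 9 libraries at 2.5% above the mean at 0%. In Acetatifactor, where 77.2% changed, 3 of 4 were called: sigA_2, a principal sigma factor symbol, at 2.91 ± 0.80 and hpf, the hibernation promoting factor gene, at 2.46 ± 0.75 were higher, and the sigma factor gene sigI was lower at -1.97 ± 0.61. In L.bacterium335, where 92.6% changed, 3 of 4 were higher with 0 counts at 0%, among them sigR_2 by at least 39.2-fold and engB by at least 28.8-fold. These 3 passed the low-count filter through the broccoli groups, which favours higher calls. The genes sigA_2 and hpf of Acetatifactor and rimP of X. muris had only 6, 12 and 5 counts at 0%. The calls on all of these are a description.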
